A study of Mus musculus with 4 samples.

Results

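The collagen hydroxylases are the enzymes of the endoplasmic reticulum that hydroxylate proline and lysine residues of newly made collagen chains, together with their direct partner subunits. The 10 genes *P3h1*, *P3h2*, *P3h3*, *P3h4*, *P4ha1*, *P4ha2*, *P4hb*, *Plod1*, *Plod2* and *Plod3* were taken by symbol from the 18598 genes of the RNA-seq table. All 10 were listed, and all 10 had a mean of at least 10 normalized counts and so were among the 14858 genes tested. The family was selected on the normalized counts of these same libraries, with the genotype difference of *P3h3* known, so its genotype differences are a description and their p-values, which were adjusted over all tested genes, are no independent support.

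RNA was measured in LSK cells, bone marrow cells negative for lineage markers and positive for c-KIT and SCA-1, a fraction rich in blood stem and multipotent progenitor cells. The 4 libraries comprised 2 of control mice (*Bptf* f/f, no cre) and 2 of Bptf cKO mice (*Bptf* f/f;*Mx1*-cre, labelled Bptf -/-), all C57BL/6 and about 3 months old, each library from the pooled cells of 5 mice. Both groups received pIpC, an inducer of interferon, and cells were sorted 10 days after cre induction. *Mx1*-cre is driven by an interferon-responsive promoter that is not restricted to blood cells, and since the controls carry no cre, an effect of cre cannot be told apart from loss of *Bptf*, the gene of the largest subunit of the NURF chromatin remodeler. *Bptf* had 5520 and 5850 normalized counts in the control libraries and 3398 and 3320 in the Bptf cKO libraries, a log2 difference of -0.76 (SE 0.090, limma adjusted p = 0.0439). The paper reports that cre removes an exon of *Bptf*, that reads on this exon were lacking in Bptf cKO cells, and that an unstable, out-of-frame transcript remains. The counts given here are for the whole gene, so they do not measure how far *Bptf* was deleted.

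The libraries held between 14091054 and 30134742 reads on listed genes. All 11 markers fixed for LSK and stem cells were listed, with summed levels of 61959 to 69208 normalized counts in the controls and 51471 to 53425 in Bptf cKO. That sum was thus lower in both Bptf cKO libraries, and its part in the differences below was not tested. Both replicate 2 libraries held *Xist* (15675 and 11843 normalized counts) and pluripotency transcripts such as *Pou5f1*. In the replicate 1 libraries *Xist* was at 0.78 in control and 3.25 in Bptf cKO, and *Pou5f1* was at 0 in both. The summed level of the 9 listed pluripotency markers was 76.0 and 34.4 in the replicate 1 libraries (control, then Bptf cKO), against 966 and 1250 in the replicate 2 libraries. Most of the replicate 1 sums was *Lin28a* (72.1 in control, 28.6 in Bptf cKO), which did not follow the replicate number (9.70 and 43.7 in replicate 2). *Xist* and the remaining pluripotency transcripts followed the replicate number and not the genotype. Differences are given below for each replicate pair where they matter. Of 14 stromal markers, 9 were not listed, among them *Lepr*, *Dcn* and *Sp7*, and the summed level of the other 5 was 679 to 2039 in the controls and 844 to 1616 in Bptf cKO. Most of that sum was *Pdgfrb*, which followed the replicate number (1936 and 1582 in replicate 1, 532 and 770 in replicate 2). The stromal markers *Col1a1* (17.1 and 22.2 in the controls, 9.75 and 12.7 in Bptf cKO), *Col1a2* (76.0 and 99.8, 20.8 and 31.0) and *Pdgfra* (3.10 and 6.93, 2.60 and 1.41) were lower in both Bptf cKO libraries, as *P3h3* was, and their part in its difference was not tested. The fifth, *Cxcl12*, had overlapping groups. The endothelial and megakaryocyte lists likewise had overlapping sums in the 2 genotypes.

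Collagen hydroxylases use iron, 2-oxoglutarate and ascorbate. Prolyl 4-hydroxylases, built from an alpha subunit (*P4ha1*, *P4ha2*) and the protein disulphide isomerase P4HB, make the hydroxyproline that stabilises the collagen triple helix. Prolyl 3-hydroxylases (*P3h1*, *P3h2*, *P3h3*) modify far fewer prolines, and lysyl hydroxylases (*Plod1*, *Plod2*, *Plod3*) make the hydroxylysine used for cross-links and for attached sugars. P3H4, which resembles the prolyl 3-hydroxylases but has no hydroxylase domain, is found in a complex with P3H3 and the lysyl hydroxylase PLOD1.

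The stretch before the transcription start is shown for *P3h3*, the member with the largest genotype difference, beside *P4ha1*, which had a similar level per length in the controls, and *P4hb*, the member with the highest level. RefSeq promoter windows on GRCm38.p6 were found for 7 of the 10 genes. *P3h2*, *P3h4* and *Plod2* had no entry. Capitals mark GGGCGG (GC box) and ACGTG (core of the HIF element) on either strand. The *P3h3* stretch is chr6:124857753-124857967 (minus strand), that of *P4ha1* is chr10:59323046-59323295 (plus strand) and that of *P4hb* is chr11:120573254-120573503 (minus strand).
P3h3: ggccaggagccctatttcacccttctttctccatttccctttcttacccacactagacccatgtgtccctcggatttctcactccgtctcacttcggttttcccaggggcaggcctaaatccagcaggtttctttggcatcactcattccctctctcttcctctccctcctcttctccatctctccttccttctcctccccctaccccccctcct
P4ha1: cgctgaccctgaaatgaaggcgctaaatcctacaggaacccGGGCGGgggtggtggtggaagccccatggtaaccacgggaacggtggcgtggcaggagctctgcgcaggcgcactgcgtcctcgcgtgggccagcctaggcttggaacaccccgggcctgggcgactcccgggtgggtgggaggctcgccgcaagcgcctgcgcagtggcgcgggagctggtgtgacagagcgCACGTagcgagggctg
P4hb: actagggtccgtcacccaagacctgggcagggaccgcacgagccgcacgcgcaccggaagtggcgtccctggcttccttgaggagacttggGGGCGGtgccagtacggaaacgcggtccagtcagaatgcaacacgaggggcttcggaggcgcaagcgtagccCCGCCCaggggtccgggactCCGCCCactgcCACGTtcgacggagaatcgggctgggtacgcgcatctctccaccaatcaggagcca
The *P3h3* line stops 35 bases short of the RefSeq start because an annotated GENCODE exon begins there. Its full window of 250 bases held neither motif and 5 CG dinucleotides, against 24 and 25 in the windows of *P4ha1* and *P4hb* and a median of 6 over 32851 promoters. The GC box was found for 5 of the 7 genes (*P3h1*, *P4ha1*, *P4ha2*, *P4hb* and *Plod1*) and in 32.7% of all windows. ACGTG was found for 5 of the 7 (*P3h1*, *P4ha1*, *P4ha2*, *P4hb* and *Plod3*) and in 16.6% of all windows. Windows were searched whether or not they held exon bases. The *Plod3* ACGTG, 54 bases before the start, lay among 208 bases of annotated exon. The *P3h1* hits began 31 and 19 bases before the start, in a window whose last 29 bases were exonic. The first of them reached into the exon and the second lay within it. These 7 genes had 8 windows, the added window being of *P3h1*, whose GC boxes and ACGTG lay in different windows. TATAAA was found for *Plod1* alone (12.4% of all windows), and neither TGATGNAA, the composite element bound by ATF4 (3.45%), nor TGACTCA or TGAGTCA, the AP1 site (4.46%), was found for any of them.

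*P3h3* (ENSMUSG00000023191.9, minus strand of chromosome 6, 124841089 to 124857752 in GENCODE vM21 on GRCm38) encodes the prolyl 3-hydroxylase that accompanies P3H4 and PLOD1. It had 898 and 948 normalized counts in the control libraries and 74.7 and 62.1 in the Bptf cKO libraries. Both Bptf cKO libraries lay far below both controls, which differed little from each other. The group means were 923 ± 35.6 and 68.4 ± 8.95 (SD, n = 2 each), so the Bptf cKO mean was 7.41% of the control mean. After adding 1 to each normalized count, the log2 difference was -3.74 (SE 0.19, limma adjusted p = 0.00944), and it ranked 11 by size of fall and 4 by p among the 14858 tested genes. Taken by replicate number, it was -3.57 for the first pair of libraries and -3.91 for the second. The call was lost without Bptf cKO replicate 1 (adjusted p = 0.0589) and without Bptf cKO replicate 2 (0.134), each a limma fit on 3 libraries in which 1 gene in all passed, and in limma without the mean-variance trend (0.0810), in which 2 genes passed. In bulk RNA, fewer cells of a type that carries the transcript and less transcript per cell cannot be told apart.

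*P3h4*, on the minus strand of chromosome 11 at 100408456 to 100414836, encodes the partner without a hydroxylase domain. It had 59.7 and 56.8 normalized counts in the controls and 13.0 and 5.64 in Bptf cKO. The groups did not overlap, but the lowest library rested on 4 reads and the other Bptf cKO library on 20. The Bptf cKO mean was 16.0% of the control mean, a log2 difference of -2.62 (SE 0.53) that did not pass in limma (adjusted p = 0.113) and passed in DESeq2 on the recovered reads (adjusted p = 0.0139). *P3h4* lies 6.62 Mb from *Bptf* on the same chromosome, as *P4hb* (13.4 Mb) and *P4ha2* (52.9 Mb) also do at larger distances, whereas *P3h3* is on another chromosome.

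*P3h1*, which acts on fibrillar collagens in a complex with CRTAP and cyclophilin B, had 322 and 245 normalized counts in the controls and 232 and 174 in Bptf cKO. The lower control library lay just above the higher Bptf cKO library. Its log2 difference was -0.48 (SE 0.24, limma adjusted p = 0.426). *P3h2*, a prolyl 3-hydroxylase of basement membrane collagen, had 55.0 and 87.3 in the controls and 72.8 and 93.1 in Bptf cKO. Its groups overlapped, with a log2 difference of 0.24 (SE 0.35, adjusted p = 0.804).

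**Figure D1:**
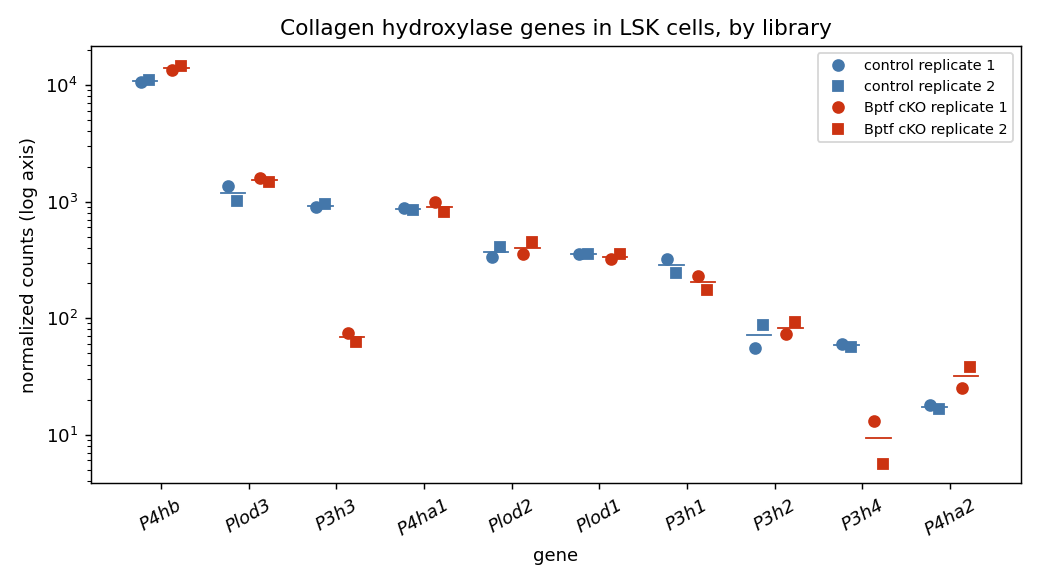
Normalized counts (log axis) of the 10 collagen hydroxylase genes in each library, ordered by control mean; circles are replicate 1, squares replicate 2, and short lines the group means. The *P3h3* means are 923 in the controls and 68.4 in Bptf cKO and the *P3h4* means 58.3 and 9.32, while the other 8 genes show smaller differences.

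None of the prolyl 4-hydroxylase genes passed the test. *P4ha1*, the main catalytic alpha subunit in many tissues, had 885 and 852 normalized counts in the controls and 998 and 808 in Bptf cKO, with overlapping groups and a log2 difference of 0.049 (SE 0.14, limma adjusted p = 0.921). *P4ha2*, the second alpha subunit, was the least abundant member. It had 17.8 and 16.6 in the controls and 25.3 and 38.1 in Bptf cKO, on 12 to 39 reads a library. Both Bptf cKO libraries were higher, with a log2 difference of 0.82 (SE 0.44, adjusted p = 0.456), made up of 0.48 for the first pair of libraries and 1.15 for the second. *P4hb*, which encodes the disulphide isomerase subunit and acts on many other secreted proteins, had 10715 and 11153 in the controls and 13426 and 14644 in Bptf cKO. Its groups did not overlap, with a log2 difference of 0.36 (SE 0.096, adjusted p = 0.186).

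*Plod1*, the lysyl hydroxylase of the P3H3 and P3H4 complex, had 356 and 358 normalized counts in the controls and 320 and 356 in Bptf cKO. The groups were separated by less than 1 normalized count, and the log2 difference was -0.079 (SE 0.15, limma adjusted p = 0.865). *Plod2*, which hydroxylates the end regions of collagen, had 332 and 409 in the controls and 357 and 447 in Bptf cKO, with overlapping groups and a log2 difference of 0.12 (SE 0.20, adjusted p = 0.839). *Plod3*, which also adds sugars to hydroxylysine, had 1365 and 1006 in the controls and 1605 and 1460 in Bptf cKO. Its groups did not overlap, with a log2 difference of 0.39 (SE 0.17, adjusted p = 0.370). Exons of *Plod3* share bases with *Znhit1* on the other strand, and those of *P3h2* and *Plod2* with *Gm4524* and *Gm38391*. The strand setting of the counting is not given in the sources used here, so reads of such pairs may not have been separated.

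A gene was called when its fold change exceeded 1.5 and its adjusted p was under 0.05. Of the 10 genes, 1 was called in limma (*P3h3*, lower), where 0.740% of the 14858 tested genes were called, 0.370% in each direction. The same gene alone was called in edgeR, where 0.633% of tested genes were called. *P3h3* and *P3h4* were called in DESeq2 (4.64% of tested genes), and with the replicate number as a block in limma (8.74%), edgeR (8.82%) and DESeq2 (4.86%). The median log2 difference of the 10 genes was 0.083, with 6 above 0 and 4 below, beside a median of 0.0010 over all tested genes. Between the libraries of the genotypes 7 of the 10 did not overlap, 4 of them lower in Bptf cKO (*P3h1*, *P3h3*, *P3h4* and *Plod1*) and 3 higher (*P4ha2*, *P4hb* and *Plod3*), where 47.0% of tested genes did not overlap, 23.8% lower and 23.2% higher. Nothing is read from these counts, since the list was chosen with the contrast known.

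**Figure D2:**
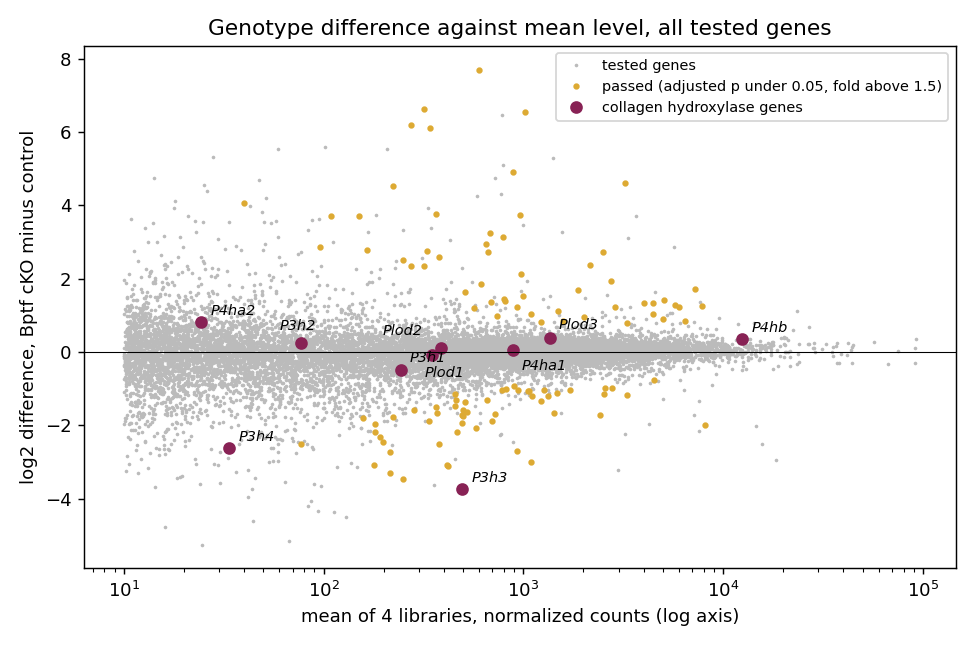
Log2 difference of Bptf cKO minus control (y axis) against mean normalized count (log x axis) for the 14858 tested genes in grey, those past the threshold in yellow and the 10 collagen hydroxylases in purple. *P3h3* at -3.74 and *P3h4* at -2.62 lie among the lower genes, and the remaining 8 lie between -0.48 and 0.82.

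Levels were compared between genes as normalized counts per kb of merged exon. In the controls *P4hb* was highest at 3745 to 3898 per kb, above 99.1% of tested genes with an exon length. *Plod3* (223 to 302) and *P3h3* (228 to 241) followed and overlapped each other, and *P4ha1* (207 to 215) was next. *P3h1* (63.8 to 83.6) and *Plod2* (61.5 to 75.8) also overlapped. *Plod1* (52.6 to 52.9), *P3h4* (26.1 to 27.4), *P3h2* (14.8 to 23.5) and *P4ha2* (2.67 to 2.86) completed the order without overlap. In Bptf cKO *P3h3* was at 15.8 to 19.0 per kb, below *P3h2* at 19.6 to 25.0, and *P3h4* at 2.59 to 5.97 overlapped *P4ha2* at 4.06 to 6.11. Percentiles of the group mean per kb were taken among the tested genes with an exon length. By these *P3h3* stood at 65.7 in the controls and 18.6 in Bptf cKO, and *P4ha1* at 62.7 and 64.1.

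Within the prolyl 3-hydroxylases the leading gene was *P3h3* in both control libraries and *P3h1* in both Bptf cKO libraries. *P3h3* made up 69.9% and 73.4% of the per kb sum of *P3h1*, *P3h2* and *P3h3* in the controls and 19.2% and 18.4% in Bptf cKO. The sum itself was 327 and 328 per kb in the controls and 98.9 and 85.9 in Bptf cKO. *P3h1* supplied 22.5 ± 4.36% (SD, n = 2) of that sum in the controls and 56.7 ± 6.00% (SD, n = 2) in Bptf cKO, at a level of its own that did not pass the test. The other classes kept their leading gene. *P4ha1* made up at least 97.0% of the alpha subunit sum in each library, and *Plod3* between 63.4% and 75.8% of the lysyl hydroxylase sum. These shares follow from the same contrast and are a description.

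**Figure D3:**
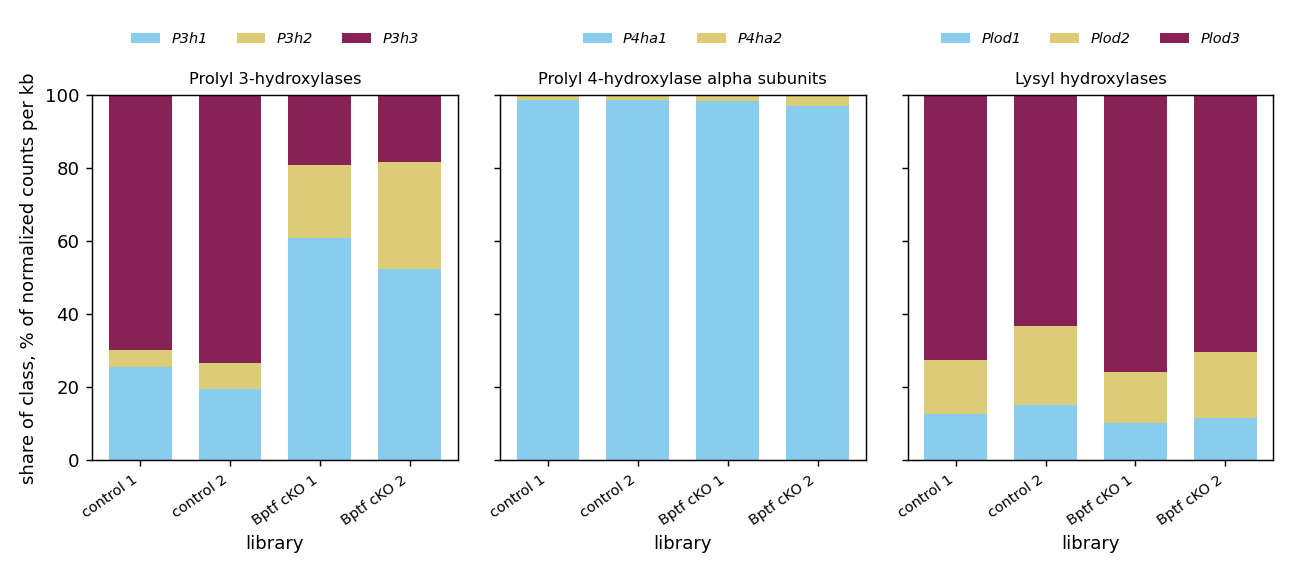
Share of each gene in the summed normalized counts per kb of its enzyme class (y axis, percent) in each of the 4 libraries, for prolyl 3-hydroxylases, prolyl 4-hydroxylase alpha subunits and lysyl hydroxylases. The *P3h3* block takes 69.9% and 73.4% of the control bars and 19.2% and 18.4% of the Bptf cKO bars, while *P4ha1* and *Plod3* lead their classes in every library.

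The genes whose values over the 4 libraries were most like those of *P3h3*, by root mean square distance of centred log2 values among 10814 genes with a mean of at least 100, were *Bgn* (distance 0.28), *Pcp4l1* (0.33), *H1fx* (0.34), *H2-DMb1* (0.35) and *Maged1* (0.39). *Bgn*, which encodes the collagen-binding proteoglycan biglycan, had 389 and 532 normalized counts in the controls and 35.7 and 45.2 in Bptf cKO. *H1fx*, a linker histone gene on the same chromosome as *P3h3*, had 737 and 746 in the controls and 105 and 70.5 in Bptf cKO. With 4 libraries, a small distance says only that these genes fell by a like amount, with log2 differences between -3.47 and -3.01.

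The nearest listed gene to *P3h3* was also lower in both Bptf cKO libraries. *Gpr162*, an orphan receptor gene that lies 691 bp upstream on the same strand and shares no exon bases with it, had 277 and 208 normalized counts in the controls and 16.2 and 49.4 in Bptf cKO. Both Bptf cKO libraries were lower, with a log2 difference of -3.03 (SE 0.55, limma adjusted p = 0.0932). *Cdca3*, the nearest on the other side at 7387 bp, had overlapping groups and a log2 difference of -0.23 (SE 0.36, adjusted p = 0.829). Of 25 other tested genes that start within 250 kb of the *P3h3* start, 0 passed in limma or edgeR and 3 passed in DESeq2 (*Gpr162*, *Lag3* and *Ptms*), with 5 at an unadjusted limma p under 0.05. Over all tested genes 4.64% passed in DESeq2 and 15.7% had such a p. Their median log2 difference was -0.10, and 4 of them were below -1 (*Lrrc23*, *Gpr162*, *Lag3* and *Ptms*), where 5.09% of all tested genes were. *Lag3*, *Ptms* and *Lrrc23* were named after their values were seen. Whether reads that run past the end of *Gpr162* enter the *P3h3* count was not tested.

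**Figure D4:**
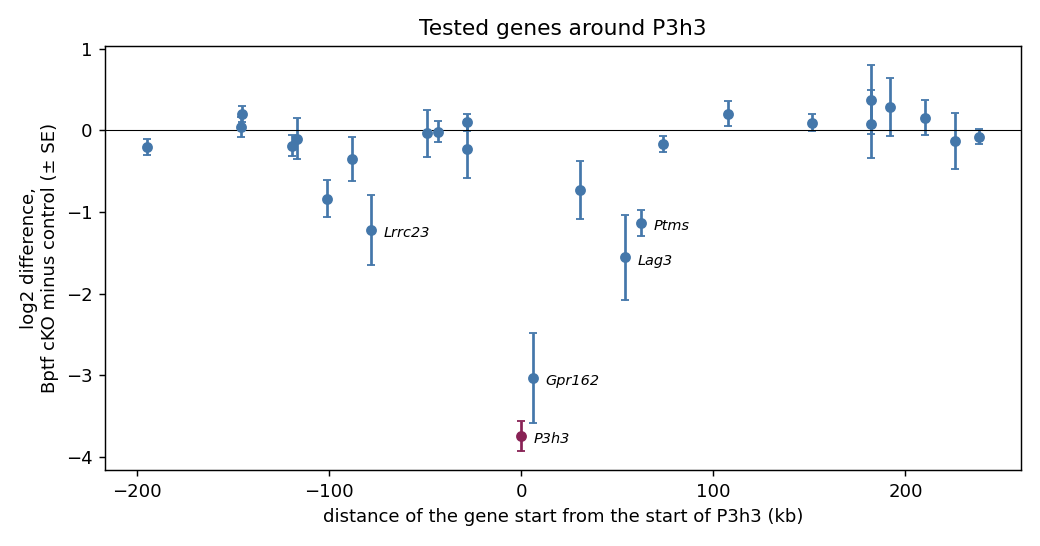
Log2 difference of Bptf cKO minus control with its SE (y axis) for each tested gene that starts within 250 kb of *P3h3*, by distance of gene start from the *P3h3* start in kb (x axis). *P3h3* at -3.74 and *Gpr162* at -3.03 stand lowest, with *Lag3* at -1.56, *Lrrc23* at -1.22 and *Ptms* at -1.13 between them and the other genes.

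The neighbours of *P3h4* were lower in both Bptf cKO libraries too, without passing the test. *Fkbp10*, a collagen chaperone gene that lies 860 bp away on the other strand, had 27.1 and 45.7 normalized counts in the controls and 22.1 and 14.1 in Bptf cKO, a log2 difference of -0.96 (SE 0.49, limma adjusted p = 0.436). *Jup*, which encodes plakoglobin and lies 10692 bp away, had a log2 difference of -0.63 (SE 0.17, adjusted p = 0.196). Around the other 8 genes the nearest listed neighbours that were tested had log2 differences between -0.33 and 0.67, with adjusted p of at least 0.466.

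Partners in collagen maturation were read from lists drawn up with the family. Among 18 tested genes of collagen chaperones and cross-linking, 0 passed in limma (3 at an unadjusted p under 0.05, as were 15.7% of all tested genes), 0 passed in edgeR and 1 passed in DESeq2, and the median log2 difference was 0.022. The partners of P3H1 had overlapping groups. *Crtap* had 1170 and 1217 normalized counts in the controls and 1200 and 1175 in Bptf cKO, and *Ppib*, which encodes cyclophilin B, had 1592 and 1843 against 1651 and 1909. *Serpinh1*, the collagen chaperone HSP47, had 133 and 154 in the controls and 50.7 and 33.9 in Bptf cKO. Its log2 difference of -1.76 (SE 0.32) did not pass in limma (adjusted p = 0.0926), and it was the gene called by DESeq2, and by limma, edgeR and DESeq2 with the replicate block. *Loxl3* and *Fkbp9*, named by rule, had log2 differences of -0.37 and 0.35. *Crtap*, *Ppib* and *Serpinh1* were named after their values were seen.

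Collagen transcripts, the substrates, were present at uneven levels. Of 21 tested genes of collagens and C1q-type proteins, 0 passed in limma (4 at an unadjusted p under 0.05), 0 passed in edgeR and 2 in DESeq2 (*Col1a2* and *Col5a3*), with a median log2 difference of -0.12. The basement membrane chains *Col4a1* and *Col4a2* led the list in normalized counts. *Col4a1* had 1703 and 3412 in the controls and 1935 and 2970 in Bptf cKO, so that the replicate number and not the genotype separated the libraries. *Col1a2*, a type I collagen chain that is also a stromal marker, had 76.0 and 99.8 in the controls and 20.8 and 31.0 in Bptf cKO (log2 difference -1.74, SE 0.38, adjusted p = 0.129), and was also called by limma and edgeR with the replicate block. *Col5a3* had 10.9 and 11.1 against 83.8 and 98.8 (2.94, SE 0.37, adjusted p = 0.05002), just outside the threshold. It was called in limma with a pseudocount of 0.5 or 10, without the filter, after median recentring or quantile normalization, and in limma, edgeR and DESeq2 with the replicate block. *Col18a1* and *Col16a1*, named by rule, had log2 differences of -0.46 and -0.29. *Col5a1* (log2 difference -1.25, SE 0.35, limma adjusted p = 0.200) was also called by limma and edgeR with the replicate block. Over the whole list 8 genes were higher and 13 lower. *Col4a1*, *Col1a2*, *Col5a1* and *Col5a3* were named after their values were seen.

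Related enzymes gave few calls. Among 24 other 2-oxoglutarate oxygenases 0 passed in limma (6 at an unadjusted p under 0.05), 0 passed in edgeR and 1 in DESeq2, with a median log2 difference of 0.018. *Tet1*, a DNA demethylase gene and the DESeq2 call, had a log2 difference of -0.65 (SE 0.12, limma adjusted p = 0.0915), and *Hspbap1* one of 0.94 (SE 0.26, adjusted p = 0.196). *P4htm*, a transmembrane prolyl 4-hydroxylase gene named after its values were seen, had 149 and 126 normalized counts in the controls and 74.1 and 50.8 in Bptf cKO, the largest difference of the list (-1.15, SE 0.30, adjusted p = 0.182). With the replicate block limma and edgeR each called 3 genes of the list, *P4htm*, *Hspbap1* and *Tet1*. Of 19 tested genes of disulphide isomerases and their oxidases, the group to which P4HB belongs, 1 passed in limma. This was *Ero1l*, which encodes the oxidase that recharges disulphide isomerases, with 716 and 729 normalized counts in the controls and 1445 and 1491 in Bptf cKO (log2 difference 1.02, SE 0.11, limma adjusted p = 0.0329). The median of that list was 0.17, with 3 genes at an unadjusted limma p under 0.05.

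*P4ha1*, *P4ha2*, *Plod1* and *Plod2* are known targets of hypoxia-inducible factors. Of 24 tested HIF targets outside the family, 3 rose in limma and 0 fell, where 0.370% of all tested genes passed in each direction. The median log2 difference was 0.063, with 13 genes above 0 and 11 below. An unadjusted limma p under 0.05 was found for 8 of the 24, and for 15.7% of all tested genes. Among the lower genes *Ankrd37*, named after its values were seen, was at -1.43 (SE 0.39, limma adjusted p = 0.196). It was called only in edgeR with the replicate block. *Hk2*, also named after its values were seen, was higher, at 0.63 (SE 0.20, limma adjusted p = 0.232). It was called in limma, edgeR and DESeq2 with the replicate block. The 3 genes that rose were *Ero1l*, *Vegfa*, which encodes an angiogenic growth factor, and *Stc2*, a secreted glycoprotein gene. *Vegfa* had 550 and 478 normalized counts in the controls and 1561 and 1401 in Bptf cKO (log2 difference 1.53, SE 0.13, limma adjusted p = 0.0226). *Stc2* had 10.9 and 6.93 against 618 and 734 (6.12, SE 0.32, adjusted p = 0.00944). *Car9* and *Pdk1*, 2 further HIF targets named after their values were seen, had log2 differences of 0.24 and -0.062. All 3 genes lost their call without either Bptf cKO library and in limma without the trend, and *Ero1l* also lost it without either control library.

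**Figure D5:**
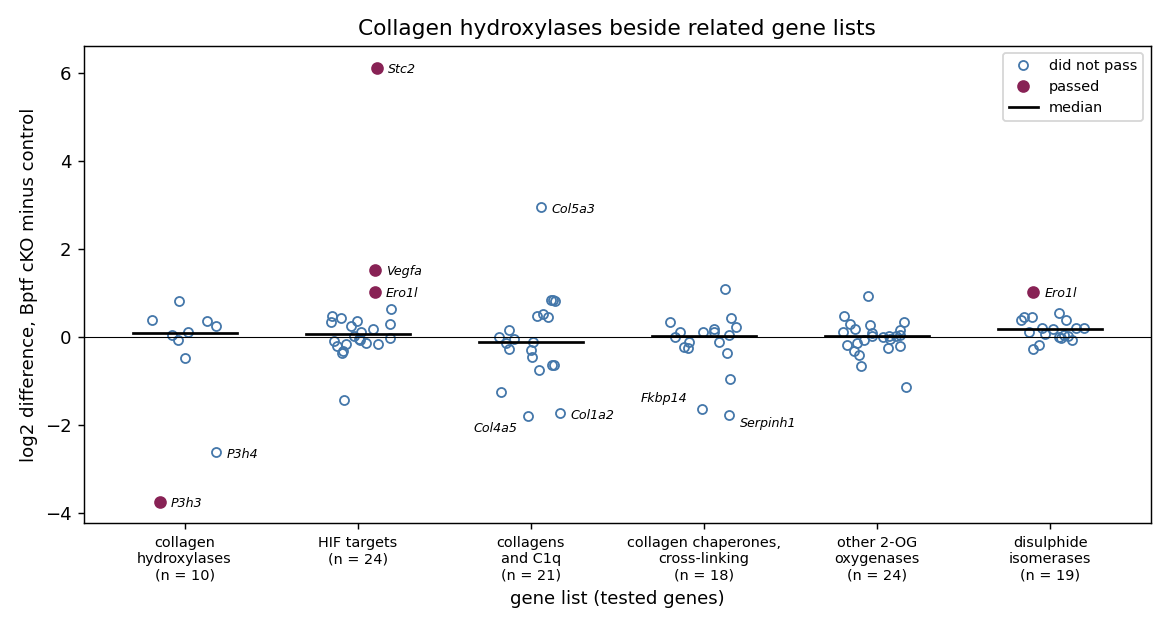
Log2 difference of Bptf cKO minus control (y axis) for the tested genes of each list (x axis), with filled points for genes past the threshold and a bar at the list median. The medians lie between -0.12 and 0.17, *P3h3* is the lowest point of the plot, and the filled points among the related lists are *Ero1l*, *Vegfa* and *Stc2*.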

How the data were processed

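RNA-seq of sorted LSK cells was analysed in 2 control and 2 Bptf cKO libraries, grouped by the sample labels. The deposited values are a signal, gene counts that the authors divided by a size factor per library. The submitters' processing notes name HISAT2, featureCounts, DESeq2, GRCm38 and mm10. Versions, annotation and strand setting are not given in the sources used here. The table also holds the authors' own fold changes, errors and p-values, which were not used. Divided by its library's value of a single read, 100% of values came out as whole reads (relative tolerance 1e-06). The table lists genes with at least 11 reads in all.

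Testing took in 14858 genes whose mean was at least 10. A pseudocount of 1 was added before taking log2, so folds of low genes are understated. Two-sided tests by genotype alone were made with limma-trend (limma 3.58.1, R 4.3.3) and Benjamini-Hochberg adjusted over these genes. A call needed a fold change over 1.5 and an adjusted p below 0.05. An exact permutation test of 2 against 2 libraries cannot go below p = 0.333. p-values measure the spread between these pooled libraries. Counting error matters for genes with few reads. Alternatives were other pseudocounts, filters and scalings, limma without the trend, a replicate block, each library left out, and edgeR 4.0.16 and DESeq2 1.42.0 on the recovered reads. The fits were also run on simulated counts with the same dispersion for every gene and no replicate effect. That run cannot tell how they perform on these libraries.

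The members and gene lists were chosen with earlier results of these data known. Beside the 10 members, the genes named are the 5 most like the member with the largest difference, the nearest listed and any overlapping genes, the genes of each list past the threshold or else its 2 largest differences at a mean of at least 100, *Bptf* and the markers. Exon lengths and positions came from GENCODE vM21 (GRCm38) by symbol, and promoter windows (250 bases before to 50 after the start) from RefSeq on GRCm38.p6, searched for motifs in the 250 bases before the start. Protein sequences were not used here.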

Additional observations from a re-analysis of the deposited data

How the results depend on the processing

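The number of tested genes past the threshold was 110. It was 2 in limma without the trend, 690 in DESeq2, and between 1 and 117 with a library left out (64 without control replicate 2 and 1 without either Bptf cKO library). For the collagen hydroxylases the count of 1 became 0 without the trend and 2 in DESeq2, with *P3h4* the added gene, and lay between 0 and 1 with a library left out. For the related lists the count of 3 became 0 without the trend and 7 in DESeq2, and lay between 0 and 2 with a library left out. Each of these leave-out fits rests on 3 libraries and assumes that the lone library varies like the other group. Of 158 values of single members under the alternatives, 146 kept their direction and side of the threshold, 3 lost the call (*P3h3*), 4 gained it (*P3h4*) and 5 turned direction. *Plod1* was 0.0068 under quantile normalization, and with a library left out *P3h2* ranged from -0.084 to 0.57, *P4ha1* from -0.10 to 0.20 and *Plod2* from -0.046 to 0.28, with -0.033 without control replicate 1. None of these was called in any fit. The cause was not tested.

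Libraries with the same replicate number deviated together (correlation 0.452 across 14858 genes, which are not independent), but the labels give only a number, so the replicate block is an alternative. With it limma passed 1299 genes, edgeR 1311 and DESeq2 722, of which 2 were collagen hydroxylases (*P3h3* and *P3h4*) in each tool and 11, 12 and 7 were genes of the related lists. *P3h4* had an adjusted p of 0.00425 in limma with the block. In that fit *P4hb* (0.0174) and *Plod3* (0.0326), both higher in Bptf cKO, also had an adjusted p under 0.05. Their folds of 1.28 and 1.31 were below the threshold, so neither was called. The replicate 1 pair alone, a value without a test and chosen after seeing the data, gave -3.57 for *P3h3* and -2.12 for *P3h4*. Precision is limited by 2 libraries a group, and for *P3h4* and *P4ha2* also by counts as low as 4 and 12 reads.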
